A study of Mus musculus with 12 samples.

Results

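The genes Vwc2, Rab4a, Fer1l6, Akap2, Bex1, Prps2, Olfml2b and Zmat5 are 8 of the protein-coding genes with different levels in hearts of the 2 genotypes, Slit2-Tg and C57BL/6J, and they are described here with and without ischemia. They were taken by symbol from 52858 genes with a value, and all 8 were among the 15240 genes tested. The genes were chosen by the Slit2-Tg against C57BL/6J difference in these 12 libraries, so the genotype differences below are a description and carry no test. The IR difference averaged over both genotypes did not enter that choice and was tested.

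RNA was measured in 4 groups of 3 hearts. C57-non-IR and Slit2-non-IR hearts were perfused ex vivo on a Langendorff apparatus without interruption, and C57-IR and Slit2-IR hearts underwent no-flow global ischemia followed by reperfusion (IR). All mice were male adults. Slit2-Tg mice carry a human Slit2 cDNA driven by the CMV promoter, which is not specific to heart cells, and go back to injected C57 × CBA F1 oocytes. The methods name C57BL/6J, which lacks the transgene, as the background strain. Reads on the mouse gene Slit2 were no check of the genotype labels, because the transgene is a human cDNA. Mouse Slit2 stood at 0.18 to 0.282 FPKM in the 6 C57BL/6J libraries. Among the 6 Slit2-Tg libraries it was 0.813 FPKM in Slit2-IR replicate 2 and 0.0847 to 0.184 FPKM in the others, and the genotypes overlapped. FPKM is the number of fragments on a gene scaled by gene length and library size, which was taken here as a median-of-ratios size factor.

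Libraries held 16601154 to 24841291 reads on genes, and mitochondrial genes took 19.7% to 23.8% of them in the 6 Slit2-Tg and 23.9% to 26.0% in the 6 C57BL/6J libraries. This share was lower in every Slit2-Tg library than in every C57BL/6J library. The summed level of 7 cardiomyocyte markers ranged from 12690 to 19380 FPKM over the 12 libraries. It was highest in replicate 1 of each group, at 19380 FPKM in C57-non-IR, 18800 in C57-IR, 16900 in Slit2-non-IR and 19230 in Slit2-IR. The sum of 12 atrial markers set Slit2-IR replicate 1 apart, with 2123 FPKM against 226.5 to 477.1 FPKM in the other 11 libraries. In Slit2-non-IR replicate 2, 9 blood and leukocyte markers summed to 56.2 FPKM against 8.1 to 25.2 FPKM elsewhere. The sum of 8 lung and airway markers was 12.7 FPKM in that library. It was 5.77 and 9.91 FPKM in C57-non-IR replicates 2 and 3, and 9.7 and 11.6 FPKM in those of C57-IR. All other libraries stood at 0.246 to 0.437 FPKM, so the lung sum was raised in more C57BL/6J than Slit2-Tg libraries. Without IR, 2 marker sums separated the genotypes. Smooth muscle and pericyte markers summed to 253.7 to 276.9 FPKM in Slit2-Tg and 291.9 to 362 FPKM in C57BL/6J libraries, and neuron and glia markers to 8.02 to 10.3 and 11.1 to 12.7 FPKM. Both sums overlapped between the genotypes after IR. The part of the mitochondrial share and of these sums in the genotype differences below was not tested. The hearts were sequenced as bulk tissue, so more RNA per cell and more cells of a type cannot be told apart.

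Slit2 is a secreted ligand of Robo receptors. The 8 genes belong to unrelated processes. Vwc2 encodes a secreted protein with von Willebrand factor C domains that antagonizes bone morphogenetic proteins (BMPs), and Olfml2b encodes a secreted protein with an olfactomedin domain. Rab4a is a small GTPase that returns internalized receptors from early endosomes to the cell surface, and Fer1l6 belongs to the ferlins, membrane proteins with C2 domains. Akap2 is an anchoring protein that holds protein kinase A (PKA) near its substrates. Bex1 is a small adaptor protein of the brain-expressed X-linked family, Prps2 makes phosphoribosyl pyrophosphate (PRPP) for nucleotide synthesis, and Zmat5 is a protein of the U11/U12 particle of the minor spliceosome.

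The genes lie on 6 chromosomes of GRCm38. Vwc2 lies on chromosome 11 from 11114223 to 11268931, on the plus strand, and Zmat5 on the same chromosome and strand from 4704678 to 4737669, 6.38 Mb away. Bex1 (136213972 to 136215513) and Prps2 (167346322 to 167382749) both lie on the minus strand of chromosome X, 31.1 Mb apart. Rab4a lies on chromosome 8 from 123805985 to 123835287, Fer1l6 on chromosome 15 from 58510048 to 58665092, Akap2 on chromosome 4 from 57717657 to 57896984, and Olfml2b on chromosome 1 from 170644532 to 170682789, all on the plus strand. The 8 genes are therefore separate loci, although 2 pairs share a chromosome.

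Promoter windows of RefSeq (GRCm38.p6) were at hand for 5 of the 8 genes, and Rab4a, Fer1l6 and Akap2 had none. The 250 bases before the start are shown for a pair of genes that were higher in Slit2-Tg hearts (Vwc2, chr11:11113766-11114015, plus strand, and Bex1, chrX:136215514-136215763, minus strand) and for the gene with the lowest ratio to C57BL/6J (Prps2, chrX:167382750-167382999, minus strand). Capitals mark matches to CCAAT or GGGCGG on either strand.
Vwc2: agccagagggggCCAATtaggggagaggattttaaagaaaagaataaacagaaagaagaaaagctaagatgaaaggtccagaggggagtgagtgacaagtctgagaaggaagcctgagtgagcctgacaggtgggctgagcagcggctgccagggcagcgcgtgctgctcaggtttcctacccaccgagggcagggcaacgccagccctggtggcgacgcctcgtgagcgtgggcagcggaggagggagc
Bex1: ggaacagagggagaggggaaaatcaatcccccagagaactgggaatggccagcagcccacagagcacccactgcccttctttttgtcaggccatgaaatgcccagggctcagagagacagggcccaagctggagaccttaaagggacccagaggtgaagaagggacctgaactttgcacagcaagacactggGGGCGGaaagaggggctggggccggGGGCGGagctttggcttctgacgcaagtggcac
Prps2: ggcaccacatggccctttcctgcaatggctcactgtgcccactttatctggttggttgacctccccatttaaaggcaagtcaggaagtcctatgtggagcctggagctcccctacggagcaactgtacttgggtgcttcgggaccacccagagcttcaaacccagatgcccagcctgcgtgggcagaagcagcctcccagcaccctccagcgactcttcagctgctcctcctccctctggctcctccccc
The windows were searched on both strands for the TATA box (read as TATAAA), for the CCAAT box, for the GC box (read as GGGCGG) and for the cAMP response element (read as TGACGTCA). CCAAT stood in the window of Vwc2, and GGGCGG in those of Bex1 (2 matches) and Olfml2b, and the windows of Prps2 and Zmat5 held none of the 4 motifs. Of 32851 windows of this length, 33.8% held the CCAAT box, 32.7% the GC box, 12.4% the TATA box and 1.55% the cAMP response element. No motif was present in all of the 3 windows of genes that were higher in Slit2-Tg hearts. CpG pairs numbered 10 for Vwc2, 4 for Bex1, 4 for Prps2, 23 for Olfml2b and 7 for Zmat5, with a median of 6 over all windows.

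Vwc2, the BMP antagonist, was low in C57BL/6J hearts and several times higher in Slit2-Tg hearts. Its values were 0.068, 0.161 and 0.163 FPKM in C57-non-IR, 0.142, 0.109 and 0.0589 FPKM in C57-IR, 0.822, 1.11 and 0.876 FPKM in Slit2-non-IR, and 0.53, 0.612 and 0.676 FPKM in Slit2-IR libraries. Every Slit2-Tg library was above every C57BL/6J library, and every Slit2-IR library was below every Slit2-non-IR library. Without IR the mean level of Slit2-Tg hearts was 7.18 times that of C57BL/6J hearts, with a 95% exact interval of the read ratio from 5.17 to 9.82 that covers counting error only, as do the intervals that follow. After IR the ratio was 5.86 (4.28 to 8.9). These levels rest on 7 to 21 reads per C57BL/6J library and 65 to 155 reads per Slit2-Tg library.

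Rab4a, the recycling GTPase, was expressed at a middle level, with 58.6% of the tested genes below its mean of 4.3 FPKM. It stood at 2.87, 2.4 and 2.73 FPKM in C57-non-IR, 2.77, 2.22 and 1.82 FPKM in C57-IR, 7.52, 7.5 and 6.09 FPKM in Slit2-non-IR, and 6.5, 4.44 and 4.72 FPKM in Slit2-IR libraries. The genotypes did not overlap, and within each genotype the IR and non-IR libraries did. The ratio of means was 2.64 without IR (interval 2.3 to 3.05) and 2.3 after IR (1.99 to 2.7). Rab4a lies within the span of the annotated same-strand gene Gm20388 and shares 0 exon bases with it.

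Fer1l6, the ferlin, was near the bottom of the range, with 9 to 17 reads per C57BL/6J library and 61 to 135 reads per Slit2-Tg library. It measured 0.0729, 0.0518 and 0.122 FPKM in C57-non-IR, 0.0854, 0.0944 and 0.0497 FPKM in C57-IR, 0.401, 0.727 and 0.476 FPKM in Slit2-non-IR, and 0.483, 0.459 and 0.34 FPKM in Slit2-IR libraries. All Slit2-Tg libraries were above all C57BL/6J libraries. The highest value belonged to Slit2-non-IR replicate 2, the library with the highest blood and lung sums, whose part in it was not tested. The ratio of means was 6.5 without IR (4.75 to 9.78) and 5.59 after IR (3.99 to 8.33).

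Akap2, the PKA anchoring protein, had the fewest reads of the 8 genes and, over the 6 libraries of each genotype, the highest ratio. Only 1 to 6 reads fell on it in each C57BL/6J library and 28 to 38 in each Slit2-Tg library. Its values were 0.0144, 0.017 and 0.00708 FPKM in C57-non-IR, 0.00702, 0.0373 and 0.0218 FPKM in C57-IR, 0.195, 0.202 and 0.155 FPKM in Slit2-non-IR, and 0.175, 0.173 and 0.154 FPKM in Slit2-IR libraries. The Slit2-Tg libraries lay close together and apart from the C57BL/6J libraries. The ratio of means was 14.3 without IR, with a wide interval (6.17 to 38.7), and 7.6 after IR (3.95 to 15.4). Of its 8163 exon bases, 6891 are shared with the same-strand gene Pakap, which held 0 to 6 reads per library, so reads of Akap2 and Pakap cannot be told apart over most of the gene and the level of Akap2 is uncertain.

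Bex1, the X-linked adaptor protein, was higher in Slit2-Tg hearts but spread widely among them. It stood at 0.545, 0.469 and 0.292 FPKM in C57-non-IR, 0.387, 0.898 and 0.638 FPKM in C57-IR, 3.37, 1.13 and 2.5 FPKM in Slit2-non-IR, and 7.31, 2.94 and 4.65 FPKM in Slit2-IR libraries. The lowest Slit2-Tg library was still above the highest C57BL/6J library. The ratio of means was 5.37 without IR (3.55 to 8.09) and 7.76 after IR (5.48 to 10.3). The highest value came from Slit2-IR replicate 1, the library with the high atrial sum. Without this library the mean genotype difference was 1.35 in place of 1.48 on the log2(FPKM + 1) scale. Replicate 1 was also highest in Slit2-non-IR, where its atrial sum was 308.7 FPKM, and in C57-non-IR, and was lowest in C57-IR. The part of the atrial sum was not tested. Bex1 transcripts match those of Bex4 over 265 bases at 98.9% identity and those of Bex2 over 452 bases at 92.3%, and Bex1 shares 223 exon bases with the opposite-strand gene Tceal7, so its reads may be split with these genes.

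Olfml2b, the olfactomedin protein, was higher in Slit2-Tg hearts within each condition and higher after IR in each genotype by its group means. It measured 2.29, 2.32 and 3.08 FPKM in C57-non-IR, 2.63, 4.16 and 3.82 FPKM in C57-IR, 6.46, 4.96 and 3.28 FPKM in Slit2-non-IR, and 7.88, 5.84 and 6.17 FPKM in Slit2-IR libraries. Slit2-non-IR replicate 3 fell within the range of the C57-IR libraries, so the genotypes overlapped over all conditions and not within one condition. The ratio of means was 1.91 without IR (1.68 to 2.11) and 1.87 after IR (1.67 to 2.02). Its highest value was also in Slit2-IR replicate 1, and without that library the mean genotype difference was 0.67 in place of 0.73 on the log2(FPKM + 1) scale. Replicate 1 was highest in Slit2-non-IR too, and lowest in both C57BL/6J groups.

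Prps2 and Zmat5 were lower in Slit2-Tg hearts. Prps2, the PRPP synthetase, stood at 2.99, 3.32 and 3.62 FPKM in C57-non-IR, 2.94, 2.84 and 3.72 FPKM in C57-IR, 1.44, 1.09 and 1.48 FPKM in Slit2-non-IR, and 1.64, 1.49 and 2.91 FPKM in Slit2-IR libraries. Without IR the genotypes did not overlap, with a ratio of 0.403 (0.354 to 0.459). After IR the ratio was 0.635 (0.56 to 0.703) and the groups overlapped, because Slit2-IR replicate 3 reached the C57-IR range. Zmat5, the splicing protein, had the highest mean FPKM of the 8 over the 12 libraries, though not in Slit2-Tg hearts, and measured 7.62, 7.87 and 6.57 FPKM in C57-non-IR, 6.43, 8.41 and 8.24 FPKM in C57-IR, 4.94, 5.56 and 5.16 FPKM in Slit2-non-IR, and 5.76, 5.16 and 4.49 FPKM in Slit2-IR libraries. Every Slit2-Tg library was below every C57BL/6J library, although the ratios were modest, at 0.71 without IR (0.622 to 0.804) and 0.668 after IR (0.581 to 0.749). Zmat5 shares 338 exon bases with the opposite-strand gene Cabp7.

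**Figure D1:**
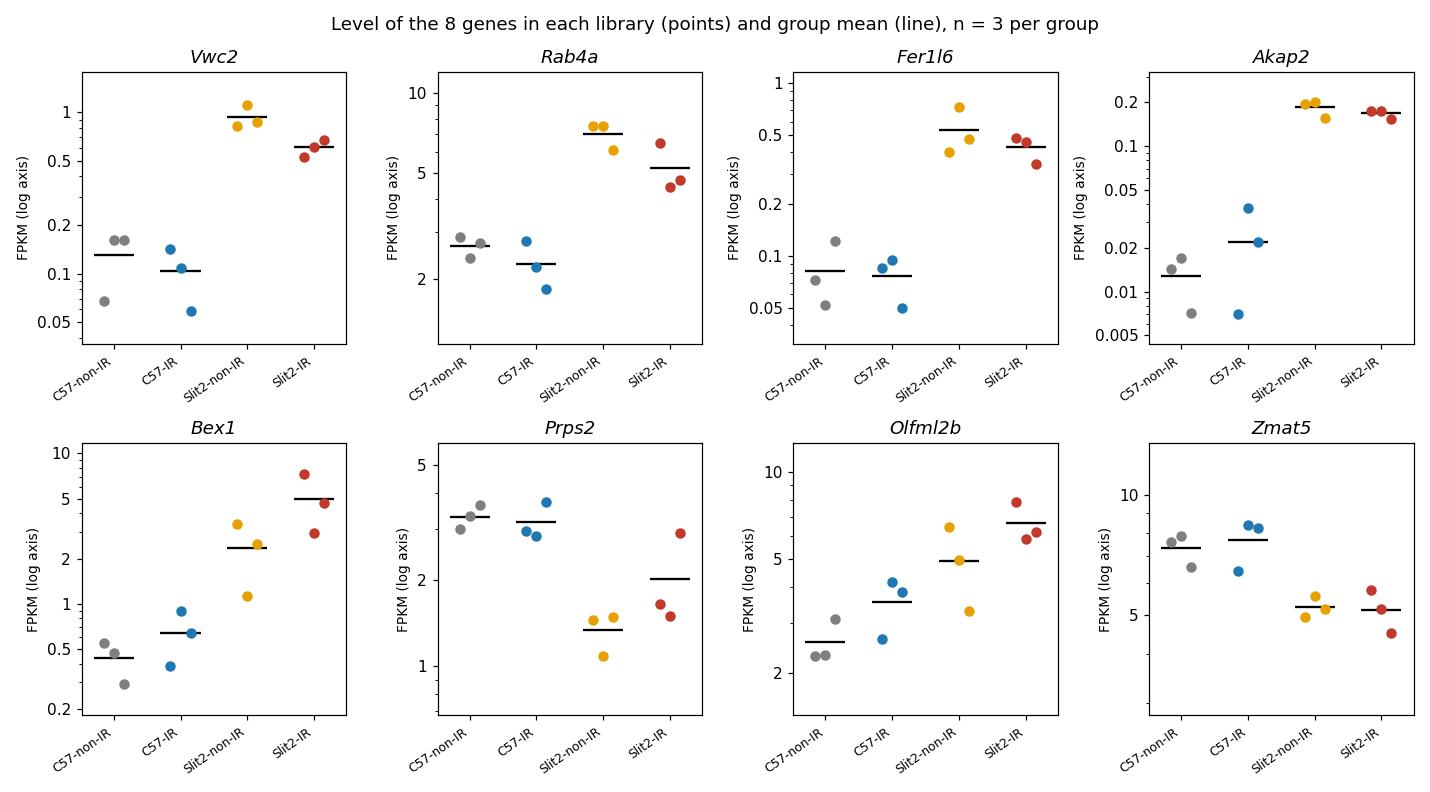
FPKM of the 8 genes on log axes in each of the 12 libraries, as points by group with the group mean as a line (n = 3 per group). Vwc2, Rab4a, Fer1l6, Akap2 and Bex1 were higher in all 6 Slit2-Tg libraries than in all 6 C57BL/6J libraries, Zmat5 was lower in all 6, and Prps2 and Olfml2b overlapped over the 6 libraries of each genotype.

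The 4 groups took the same order for Vwc2, Rab4a and Fer1l6, which were lowest in C57-IR, then C57-non-IR, then Slit2-IR, and highest in Slit2-non-IR. For these genes the step that separated the libraries completely was the one from C57-non-IR to Slit2-IR, and for Vwc2 also the last step. Akap2 had the same order except that C57-non-IR was lowest, and its complete step was that between the genotypes. Bex1 and Olfml2b ran from C57-non-IR over C57-IR and Slit2-non-IR to Slit2-IR, and neighbours in that order overlapped throughout for Olfml2b and except at the genotype step for Bex1. Prps2 ran from Slit2-non-IR over Slit2-IR and C57-IR to C57-non-IR, and its lowest 2 groups did not overlap, by a gap of 1.479 to 1.491 FPKM. Zmat5 ran from Slit2-IR over Slit2-non-IR and C57-non-IR to C57-IR, and its genotype step did not overlap.

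On the log2(FPKM + 1) scale, on which the fits were made, the mean genotype difference was 1.48 for Bex1 (SE 0.20), 1.03 for Rab4a (SE 0.10), 0.73 for Olfml2b (SE 0.14), 0.66 for Vwc2 (SE 0.05), 0.45 for Fer1l6 (SE 0.05), 0.21 for Akap2 (SE 0.02), -0.46 for Zmat5 (SE 0.08) and -0.69 for Prps2 (SE 0.12). This scale understates differences of low genes. With voom weights on the recovered reads, the difference was 3.24 for Akap2, 2.74 for Vwc2, 2.61 for Fer1l6 and 2.55 for Bex1. Over all tested genes the fit called 0.0984% higher and 0.0328% lower for the mean genotype difference. These were 20 genes in all, 13 of them protein-coding, members included. In the pair of groups without IR it called 0.0394% of tested genes higher, and after IR 0.0328%. The genotype differences chose the 8 genes, so calls among them are no test and are not given.

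Over all conditions, 5 of the 8 genes were higher in Slit2-Tg hearts with no overlap between the genotypes, as were 0.236% of tested genes, and Zmat5 was lower with no overlap, as were 0.177%. Without IR, 6 of the 8 were higher with no overlap between the 3 libraries of each group (4.63% of tested genes) and 2 were lower (4.57%). After IR, 6 were higher (3.03%) and Zmat5 was lower (3.44%). These counts follow from the choice of the genes by genotype, so nothing is read from them.

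**Figure D2:**
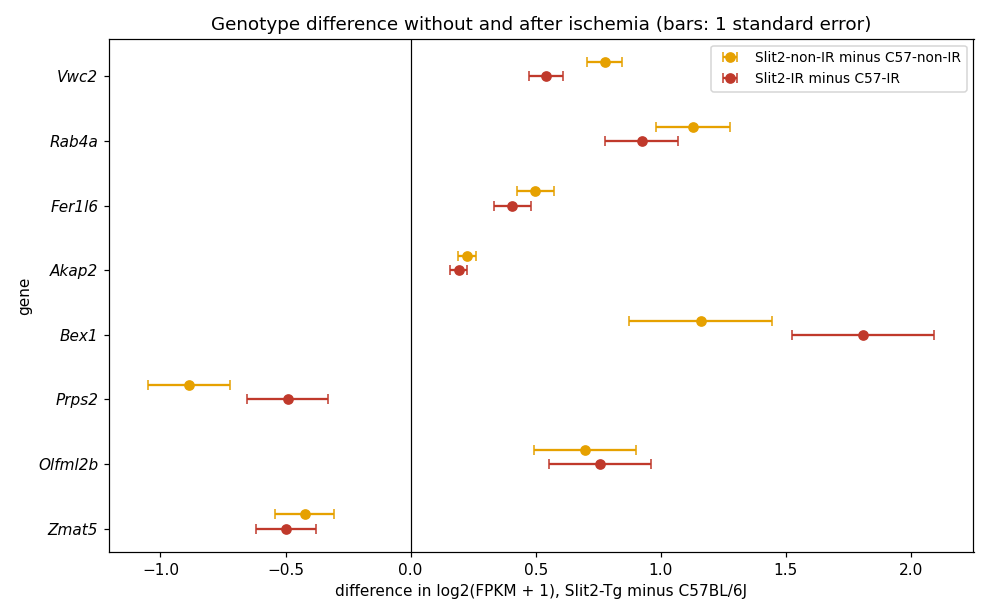
Difference in log2(FPKM + 1) between Slit2-Tg and C57BL/6J hearts for each gene, without IR and after IR, with bars of 1 standard error from the fit over 12 libraries. The difference had the same sign in both conditions for all 8 genes, and ran from -0.89 (Prps2) to 1.16 (Bex1) without IR and from -0.50 (Zmat5) to 1.81 (Bex1) after IR.

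Whether the genotype difference was as large after IR as without was asked by the interaction term. For Vwc2 the difference was 0.77 without IR and 0.54 after IR, an interaction of -0.23 (SE 0.10, limma unadjusted p = 0.0338, adjusted p = 0.9998). This was the only one of the 8 genes with an unadjusted p under 0.05, a level reached by 1.86% of tested genes. The limma adjusted test called 0% of the 15240 genes for this term (0 genes, with 284 at an unadjusted p under 0.05 and 0 by voom). The largest interaction estimates were 0.65 for Bex1 (SE 0.40), which was 0.38 without Slit2-IR replicate 1 and 0.36 without Slit2-non-IR replicate 2, and 0.39 for Prps2 (SE 0.23), which was 0.19 without Slit2-IR replicate 3. The other 5 estimates ran from -0.21 for Rab4a to 0.06 for Olfml2b. Each of these 5 moved by over 1.5 times when 1 library was left out. The interaction shares its libraries with the differences that chose the genes, and with 3 hearts per group its standard errors were 0.05 to 0.40.

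IR, averaged over both genotypes, gave no call among the 8 genes, while it changed 3.49% of all tested genes. At an unadjusted p under 0.05, 4 of the 8 stood against 15.9% of tested genes. The fit called 356 genes higher and 176 lower after IR, a split that became 326 and 266 with upper-quartile scaling. The libraries of IR and non-IR hearts overlapped for all 8 genes, whereas 2.23% of tested genes were higher and 1.17% lower after IR with no overlap.

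The 4 genes at an unadjusted p under 0.05 pointed in both directions. Vwc2 had an IR difference of -0.15 on the log2(FPKM + 1) scale (SE 0.05, limma adjusted p = 0.13, range over the alternatives 0.0931 to 0.384). Rab4a had an IR difference of -0.28 (SE 0.10, limma adjusted p = 0.207, range 0.0871 to 0.363). For Bex1 the difference was 0.51 (SE 0.20, limma adjusted p = 0.231, range 0.115 to 0.439), and 0.37 without Slit2-IR replicate 1. For Olfml2b it was 0.37 (SE 0.14, limma adjusted p = 0.227, range 0.116 to 0.444), and 0.31 without that library. The remaining 4 estimates were 0.14 for Prps2 (SE 0.12), 0.01 for Zmat5 (SE 0.08), -0.0036 for Akap2 (SE 0.02) and -0.05 for Fer1l6 (SE 0.05), and the sign of those for Zmat5 and Akap2 turned under other settings. The estimate of Prps2 was 0.043 without Slit2-IR replicate 3. That of Fer1l6 was -0.0097 without Slit2-non-IR replicate 2, -0.031 without Slit2-IR replicate 3 and -0.085 without Slit2-non-IR replicate 1.

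Within the genotypes, which are given without a test, the IR difference of Vwc2 was -0.27 in Slit2-Tg and -0.03 in C57BL/6J hearts (SE 0.07 each). For Bex1 it was 0.83 in Slit2-Tg and 0.19 in C57BL/6J hearts (SE 0.28 each). Olfml2b was nearly alike in both, at 0.40 and 0.34 (SE 0.20 each). Among Slit2-Tg hearts, Prps2 was higher after IR with no overlap, as were 8.65% of tested genes, and Vwc2 was lower with no overlap, as were 8.3%. The gap of Prps2 was narrow, from 1.479 FPKM (145 reads) in Slit2-non-IR replicate 3 to 1.491 FPKM (139 reads) in Slit2-IR replicate 2. Among C57BL/6J hearts 0 of the 8 genes separated in either direction, against 6.75% of tested genes higher and 7.01% lower. Same-numbered Slit2-Tg libraries deviated together from their group means, with correlations of 0.291, 0.294 and 0.143. In all 3 of these pairs Bex1, Prps2 and Olfml2b were higher after IR, and Vwc2, Rab4a and Akap2 were lower. In same-numbered C57BL/6J libraries Olfml2b was likewise higher, and Rab4a lower, in all 3 pairs. No label names these pairs. The share of all tested genes that ran alike in 3 pairs was not taken, so nothing is read from these directions.

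**Figure D3:**
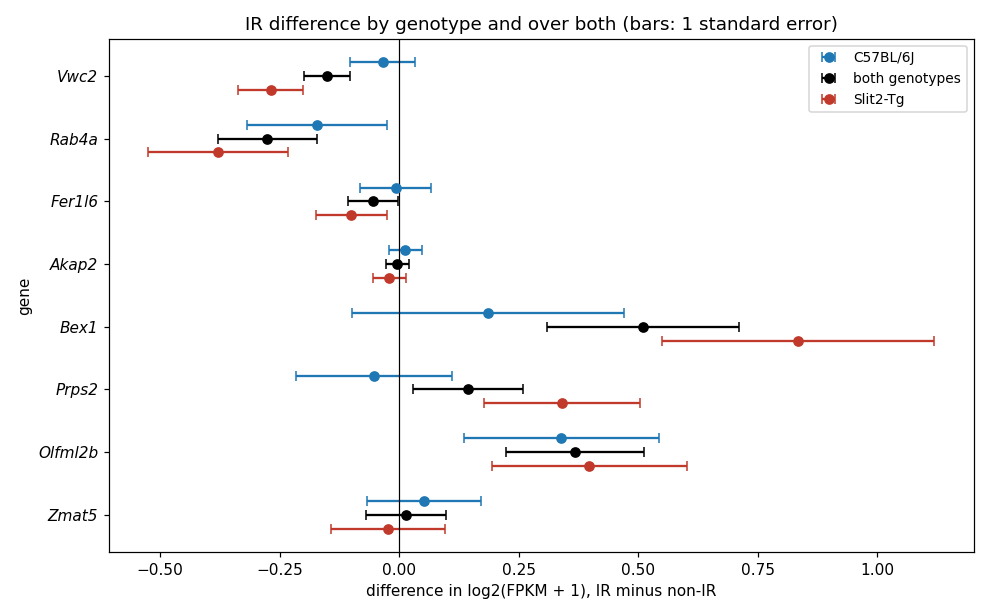
IR minus non-IR difference in log2(FPKM + 1) for each gene in C57BL/6J hearts, in Slit2-Tg hearts and averaged over both, with bars of 1 standard error. The averaged difference was lowest for Rab4a (-0.28) and highest for Bex1 (0.51), and passed the adjusted threshold for none of the 8 genes.

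The spread of each gene over the 12 libraries was split into shares for genotype, IR, their interaction and the libraries within a group. Genotype, which chose the genes, took 60.8% (Olfml2b) to 96.9% (Akap2). The share of IR was largest for Olfml2b (15.6%) and Bex1 (8.69%) and under 1% for Akap2 and Zmat5 (0.0288% and 0.0782%). The interaction took most in Prps2, with 5.91%. Libraries of a group differed most in Olfml2b (23.5%), Zmat5 (19.6%) and Prps2 (18.5%), and least in Akap2 (2.5%) and Vwc2 (3.44%).

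**Figure D4:**
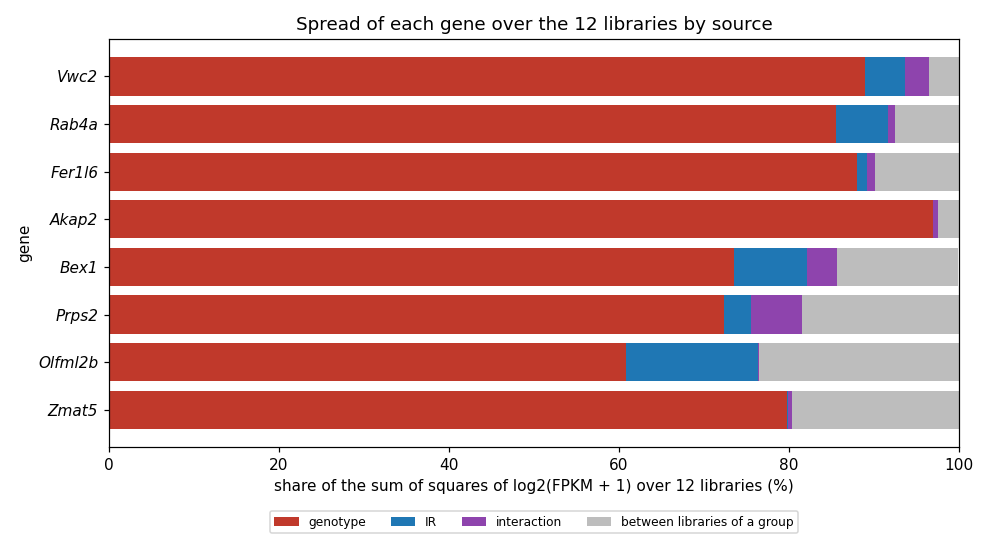
Share of the sum of squares of log2(FPKM + 1) over 12 libraries taken by genotype, IR, their interaction and differences between libraries of a group, as stacked bars that add up to 100%. Genotype took the longest bar for each of the 8 genes, from 60.8% to 96.9%.

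Genes near the members were examined next, using the mean genotype difference. Within 1 Mb of the 8 genes, 6 (Vwc2) to 40 (Rab4a and Olfml2b) other genes were tested, and 0 passed the adjusted threshold around each of the 8 (the number at an unadjusted p under 0.05 was 5 near Olfml2b, 4 near Rab4a, 2 near Zmat5, 1 each near Bex1 and Prps2, and 0 near the other 3). Within 5 Mb the noncoding gene G530011O06Rik was lower in Slit2-Tg hearts, at a distance of 2.59 Mb from Prps2 (-0.67, SE 0.10, limma adjusted p = 0.036). Other genes within 5 Mb had estimates beyond 0.5 in size that missed the threshold. These were Casq1 (0.81, SE 0.42) and Ifi202b (0.67, SE 0.28) near Olfml2b, the atrial marker Myl7 (0.78, SE 1.5) near Zmat5, Alad (0.62, SE 0.27) near Akap2, Gm15726 (-0.50, SE 0.13) near Prps2 and Armcx4 (0.65, SE 0.11, limma adjusted p = 0.0669) at 1.52 Mb from Bex1. The number of genes within 5 Mb at an unadjusted p under 0.05 ran from 0 near Vwc2 and Fer1l6 to 9 of 100 near Olfml2b. Vwc2 was 10.7 kb from Zpbp, for which the difference was 0.05 (SE 0.04), and 1978 kb from Upp1 on the other side (-0.16, SE 0.11). Rab4a was 5.54 kb from Ccsap, which measured 0.432 ± 0.066 FPKM in C57BL/6J and 0.542 ± 0.113 FPKM in Slit2-Tg hearts (SD, n = 6), a difference of 0.10 (SE 0.05, limma adjusted p = 0.999). Akap2 was 5.64 kb from Palm2 (0.02, SE 0.04). Zmat5 was 0.336 kb from Uqcr10, a subunit of respiratory complex III (-0.15, SE 0.14), and Prps2 was 15.8 kb from Tlr7 (-0.08, SE 0.14). Around Bex1, Tceal8 differed by 0.06 (SE 0.09) and Tceal9 by 0.01 (SE 0.15), and the overlapping Tceal7 by 0.24 (SE 0.10, limma adjusted p = 0.999). Fer1l6 lay between Fam91a1 (0.01, SE 0.09) and Tmem65 (0.12, SE 0.08), and Olfml2b between Nos1ap (0.09, SE 0.04) and Atf6 (0.03, SE 0.10).

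**Figure D5:**
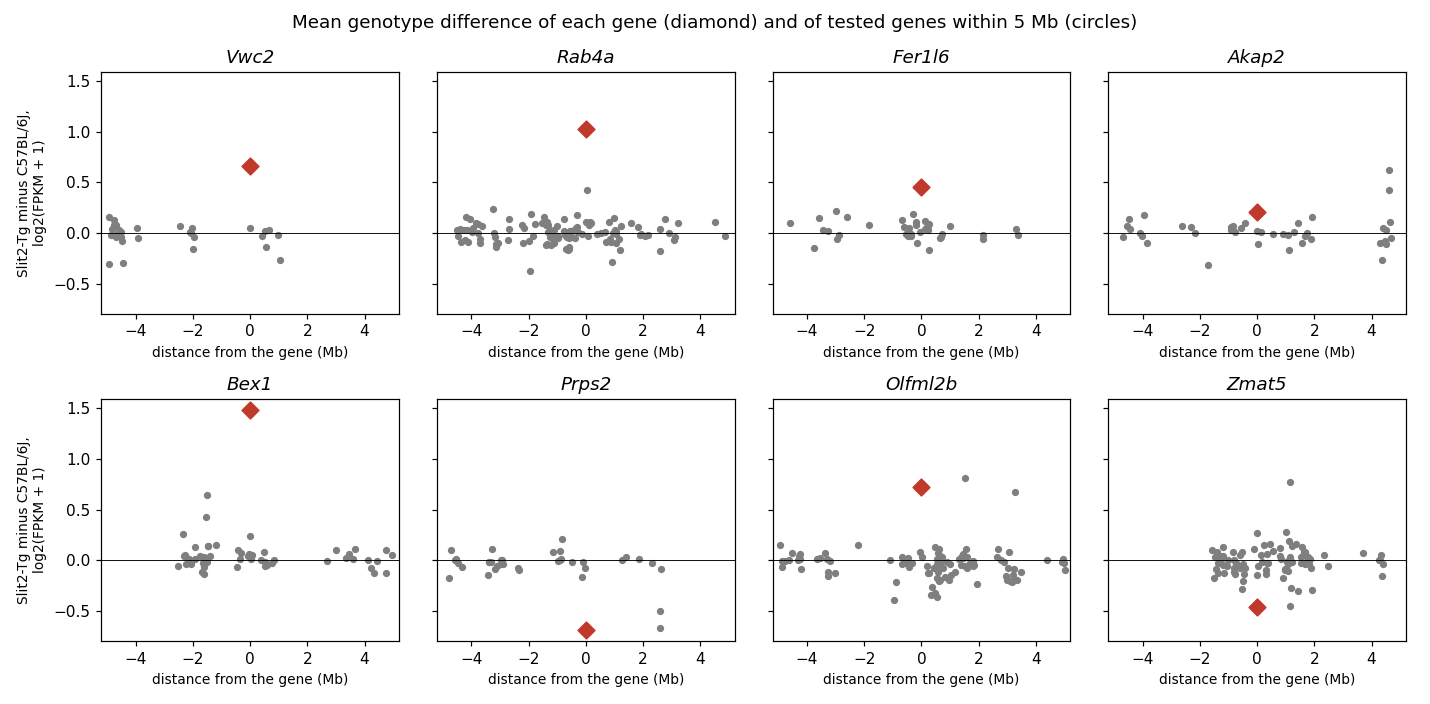
Mean genotype difference in log2(FPKM + 1) of each of the 8 genes (diamond) and of the tested genes within 5 Mb on either side (circles), against the distance in Mb. Within 1 Mb of the 8 genes, 0 of 6 to 40 genes passed the adjusted threshold, and G530011O06Rik, 2.59 Mb from Prps2, was the one that did within 5 Mb.

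Relatives of the members were examined too, together with Palm2, the neighbour of Akap2, and Snrnp25 of the minor spliceosome. None of the 8 genes of this set that were tested passed the adjusted threshold for the mean genotype difference. Prps1, the other PRPP synthetase of heart, measured 11.2 ± 0.77 FPKM without and 12.2 ± 1.31 FPKM after IR in C57BL/6J hearts (SD, n = 3), and 10.7 ± 0.38 and 11.3 ± 0.37 FPKM in Slit2-Tg hearts, a mean genotype difference of -0.08 (SE 0.06, limma adjusted p = 0.999). Its level, a per-length value, was thus above that of Prps2 in every group. The other genes of the set that were tested had mean genotype differences of 0.05 for Bex3 (SE 0.11), 0.04 for Bex4 (SE 0.09), -0.0005 for Dysf (SE 0.08), 0.05 for Myof (SE 0.07), 0.14 for Olfml2a (SE 0.09), 0.02 for Palm2 (SE 0.04) and -0.09 for Snrnp25 (SE 0.07). Rab4b was low, at 2 to 9 reads per library, and Bex2 at 0 to 2 reads, and the Vwc2 paralog Vwc2l had 0 reads in all 12 libraries. These 3 genes and Pakap were below the filter for testing.

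The pathways of the 8 genes were read from a list for each. Of their other tested genes, none passed the adjusted threshold for a genotype difference, as a mean or in either condition, or for the interaction (limma). The lists held 28 tested BMP genes, 25 of endosomal recycling, 12 of ferlins and membrane repair, 23 of PKA and its anchoring proteins, 7 BEX and TCEAL genes, 19 of PRPP and purine synthesis, 8 with olfactomedin domains and 14 of the minor spliceosome. At an unadjusted p under 0.05 the mean genotype difference stood for 1 BMP gene, 1 ferlin or repair gene and 1 BEX or TCEAL gene, and for 0 in the other 5 lists. These 3 were 2.21% of the 136 genes, against 4.13% of all tested genes. The median genotype difference was highest in the olfactomedin list (0.11, against -0.0013 over all tested genes) and lowest in the purine list (-0.03).

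After IR, 5 of these 136 genes changed, or 3.68%, against the 3.49% of all tested genes that were called, a share near the background. Bmp2, a BMP ligand, rose from 1.18 ± 0.24 to 4.21 ± 1.82 FPKM (SD, n = 6), a difference of 1.20 (SE 0.18, limma adjusted p = 0.00443), and Smad6, an inhibitor of BMP signaling, fell from 8.94 ± 1.43 to 5.51 ± 0.36 FPKM (-0.60, SE 0.09, limma adjusted p = 0.00571). Both belong to the list of Vwc2, of which 1 gene rose and 1 fell among 28. Akap12, a PKA anchoring protein, rose from 8.76 ± 1.05 to 30.2 ± 10.4 FPKM (1.61, SE 0.20, limma adjusted p = 0.00236) and was the one of 23 in its list. Rabgef1, an exchange factor for endosomal Rab proteins, rose from 4.67 ± 0.28 to 7.53 ± 1.01 FPKM (0.58, SE 0.09, limma adjusted p = 0.00523). Impdh2, the rate-limiting enzyme of guanine nucleotide synthesis, rose from 8.19 ± 0.88 to 12.3 ± 2.1 FPKM (0.53, SE 0.11, limma adjusted p = 0.0217). In the lists of ferlins, BEX and TCEAL, olfactomedin and spliceosome genes 0 passed, with 3, 4, 1 and 2 at an unadjusted p under 0.05. Of all 136 list genes, 28 (20.6%) stood at that level, against 15.9% of all tested genes. All 7 tested BEX and TCEAL genes had an IR estimate above 0, with a median of 0.28 against 0.0036 over all tested genes. So had 10 of 12 ferlin and repair genes, with a median of 0.14. The share of all tested genes above 0 was not taken, so nothing is read from these signs.

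The genes whose log2(FPKM + 1) values ran most like those of a member over the 12 libraries were often other members. The genotype difference that chose the members enters these correlations, and the libraries share groups and depth, so they are a description. For Vwc2 the closest of all tested genes were Fer1l6 (Pearson r = 0.956), Akap2 (0.946) and Rab4a (0.941). Fer1l6 and Rab4a had the other 3 of these 4 genes as their closest. Akap2 was closest to the transcribed pseudogene Gm10175 (0.963), which was 5.94 FPKM in C57BL/6J and 11.3 FPKM in Slit2-Tg hearts. Gm10175 was also closest to Olfml2b (0.92). For Bex1 the closest were the pseudogene AC154767.3 (0.973), Armcx4 (0.92), a gene on the same chromosome that measured 1.2 FPKM in C57BL/6J and 2.46 FPKM in Slit2-Tg hearts, and Glcci1 (0.919). Prps2 was closest to Kcnmb1 (0.855), a potassium channel subunit of smooth muscle, Rrm2 (0.85) and Cd59b (0.839), and Zmat5 to Sar1a (0.875), Mfap1b (0.87) and Snhg6 (0.859). Once the group means were removed, the 28 pairs of members had a median correlation of 0.04, with a range from -0.73 to 0.71.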

How the data were processed

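RNA of 12 mouse hearts was measured by paired-end sequencing (TRIzol, NEBNext Ultra RNA kit, Illumina HiSeq). The authors deposited 1 FPKM value for each gene in each library. Their processing notes name HISAT2 and mm10, and the counting tool, annotation release and use of strand are not given in the sources used here. The product of FPKM and gene length came in whole reads, within 0.05 of a read, for 100% of values, which gave the recovered reads and showed that the files share median-of-ratios scaling. Reads ranged from 16601154 to 24841291 per library, which limits precision for genes with few reads.

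The 4 groups come from the sample titles, whose letters were read against the groups in the methods. The labels call the 3 samples of a group independent and name no shared litter or day. A gene was tested if at least 3 libraries held 10 reads on it, scaled to the median library, and all libraries together 15 (15240 genes). The test was limma-trend on log2(FPKM + 1), 4 groups fitted together, Benjamini-Hochberg adjustment over all tested genes and a threshold of 0.05. A count test was planned only for deposited counts and was not used. The 8 genes and the pathway lists were chosen with earlier results of these data known. Also named are their closest relatives, with Palm2 and Snrnp25, list genes past the threshold, the 3 tested genes most correlated with each, the nearest tested protein-coding genes, called genes within 1 Mb, and Slit2. G530011O06Rik and the other genes with estimates beyond 0.5 within 5 Mb were named after their values were seen. Besides the lists whose sums are given, markers of fat, skeletal muscle, fibroblasts, endothelium, smooth muscle, neurons and mesothelium were summed, and their sums were 97.1 to 223.2, 474.3 to 854.3, 99.2 to 203.1, 236.6 to 410.5, 189 to 368.7, 7.5 to 12.7 and 0.948 to 7.39 FPKM.

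Coordinates and exon lengths of the 8 genes equalled GENCODE M21 (GRCm38). Transcripts sharing at least 100 bases at 90% identity with another gene were listed. The deviations of same-numbered libraries correlated at over 0.1 in all 3 pairs of Slit2-IR with C57-IR (0.285, 0.154 and 0.362), of Slit2-IR with Slit2-non-IR (0.143 to 0.294) and of C57-IR with Slit2-non-IR (0.191 to 0.586), and not in all 3 pairs of Slit2-non-IR against C57-non-IR hearts (0.0377 to 0.324). No label names this pairing, and its cause was not tested. For replicate 1 the correlation was 0.157 to 0.586 over all pairs of groups. Replicate 1 also had the highest cardiomyocyte sum and the lowest fibroblast sum in each group. Replicates of each group differed by more than sampling noise. The alternatives were a pseudocount of 0.1, a stricter filter of at least 10 reads in each library, no filter but a minimum of 1 read, upper-quartile scaling, a replicate block, voom weights on recovered reads, a fit of the 6 libraries compared, and leaving out each library. There were 0 columns of sample values that were not used. Software was limma 3.58.1 under R 4.3.3, and pandas 2.3.3, scipy 1.17.1 and matplotlib 3.10.9 under Python 3.11.15.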

Additional observations from a re-analysis of the deposited data

How the results depend on the processing

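The numbers of genes called, on which the shares beside the members rest, moved by over 1.5 times under some settings. Without IR the genotype comparison called 6 genes, and 10 with a pseudocount of 0.1, 11 with no filter beyond 1 read, 3 with at least 10 reads in every library and 2 with the replicate block. After IR it called 7, and 3 with at least 10 reads in every library and 4 in the fit of the 6 libraries compared. The mean genotype difference called 20, and 8 with at least 10 reads in every library, a filter that removes the low members. IR called 532 genes over both genotypes, and 299 with no filter beyond 1 read. The interaction called 0, and 4 with no filter. The cause was not tested beyond the genes and libraries each setting removes. Leaving out 1 library gave 1 to 14 calls without IR (1 without each C57-non-IR library, 2 without C57-IR replicate 2 or 3, 10 without Slit2-IR replicate 2 and 14 without Slit2-IR replicate 3), 4 to 12 after IR (4 without C57-IR replicate 1 or 3 or Slit2-IR replicate 1, 12 without Slit2-IR replicate 2), 12 to 30 for the mean genotype difference (12 without C57-non-IR replicate 2 or 3, 13 without C57-IR replicate 3, 30 without Slit2-IR replicate 3), 329 to 713 for IR (329 without C57-non-IR replicate 2 or 3, 336 without C57-IR replicate 2, 343 without Slit2-non-IR replicate 2) and 0 to 1 for the interaction (1 without Slit2-non-IR replicate 1 or Slit2-IR replicate 3).

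The replicate block gave 9 calls between the genotypes after IR, 17 for the mean genotype difference, 773 for IR and 0 for the interaction. The comparison after IR was one of those in which the deviations of same-numbered libraries correlated, though no label names a pairing. Under it, as under the other alternatives run for each gene, none of the 8 genes passed the adjusted threshold for IR or the interaction.

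Among the 8 genes the mean genotype difference kept its sign under the 17 or 18 alternatives run for each. The stricter filter gave no value for Vwc2, Fer1l6, Akap2 and Bex1, and the fit of 6 libraries does not give this difference. Without 1 library the interaction of Rab4a ran from -0.35 (without Slit2-IR replicate 1) to -0.098 (without C57-IR replicate 1), with -0.12 without Slit2-IR replicate 2, and that of Fer1l6 was -0.16 when Slit2-non-IR replicate 1 was left out, -0.0047 when replicate 2 of that group was, and -0.048 without Slit2-IR replicate 3. That of Akap2 reached -0.051 without Slit2-non-IR replicate 3. The IR difference of Akap2 turned to 0.0115 with a pseudocount of 0.1 and 0.19 with voom weights, and ran from -0.012 to 0.0019 without 1 library. That of Zmat5 turned to -0.0335 with upper-quartile scaling and ran from -0.0218 to 0.069 without 1 library. The interaction of Olfml2b ran from -0.15 to 0.25 and that of Zmat5 from -0.18 to 0.0023 without 1 library. Akap2 had the fewest reads, with 17 over the 6 C57BL/6J libraries. Most of its exon bases are shared with Pakap, and the parts of depth and of this sharing were not tested.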
